A study of Mus musculus with 7 samples.

Results

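The 10 genes described here encode the enzymes that interconvert guanine nucleotides (Gmpr, Gmpr2, Impdh1, Impdh2, Gmps), the enzymes that recover purine bases and nucleosides (Hprt, Aprt, Pnp) and a pair of nucleoside carriers (Slc28a2, Slc29a1). They are 10 of the 35976 gene symbols in the deposited count table. The set was chosen on function and on measured values of these libraries, namely the higher level of Gmpr and the lower level of Slc28a2 in the Brd9 knockout libraries. Differences between the groups in these 10 genes are therefore given as a description, with intervals and without p-values. All 10 passed the filter on low counts.

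The study measured polyA RNA in lineage-negative cells of C57BL/6 fetal liver at E14.5, the fraction that is left when cells bearing markers of mature blood lineages are removed on magnetic beads. The 3 control libraries came from CD45.2(+) Brd9fl/fl embryos and the 4 knockout libraries from CD45.2(+) Vav1-iCre Brd9fl/fl embryos, so both groups carried the floxed alleles. Brd9 encodes a bromodomain subunit of a BAF chromatin remodelling complex, and Vav1-iCre is a recombinase driven by a promoter that is active in blood cells and, in part, in endothelium. Every knockout library and no control carried the recombinase, so any effect of the recombinase itself and of Brd9 loss cannot be told apart. The mothers carried Vav1-iCre and the fathers did not. Nothing in the labels states whether a library is 1 embryo or a pool, so the spread between libraries may be partly technical.

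Cells obtain purine nucleotides by building them anew or by salvage. Inosine monophosphate (IMP) is the branch point: IMP dehydrogenase and GMP synthetase lead from it to guanosine monophosphate (GMP), and GMP reductase leads back from GMP to IMP. Salvage enzymes re-attach free bases to ribose phosphate, and carriers in the membrane bring in nucleosides released by other cells. Mature red cells lack the de novo pathway and depend on salvage, and fetal liver at this stage is a site of intense red cell production.

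The promoters of Gmpr, its paralogue Gmpr2 and Slc28a2 are shown because these genes gave the largest rise, the smallest difference and the largest fall of the set. Each line is the 250 bases before the RefSeq start site on GRCm38.p6, the plus strand, 5′ to 3′. The windows are chr13:45507194-45507443 for Gmpr, chr14:55671985-55672234 for Gmpr2 and chr2:122426185-122426434 for Slc28a2. Capitals mark matches, on either strand, to 4 motifs. The GATA factor motif was searched as AGATAA. The motif of ETS factors was searched as AGGAAG, the GC box as GGGCGG, and the TATA box with the letters TATAAA.
Gmpr: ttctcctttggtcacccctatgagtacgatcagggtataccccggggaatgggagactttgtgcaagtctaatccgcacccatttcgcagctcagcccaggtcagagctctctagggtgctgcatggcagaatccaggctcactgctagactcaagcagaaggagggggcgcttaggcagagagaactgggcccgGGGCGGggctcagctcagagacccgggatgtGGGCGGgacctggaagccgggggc
Gmpr2: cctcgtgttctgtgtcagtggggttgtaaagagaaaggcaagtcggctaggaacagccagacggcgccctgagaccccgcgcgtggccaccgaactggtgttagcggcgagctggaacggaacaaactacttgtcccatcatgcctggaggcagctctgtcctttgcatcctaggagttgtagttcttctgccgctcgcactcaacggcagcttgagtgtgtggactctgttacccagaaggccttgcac
Slc28a2: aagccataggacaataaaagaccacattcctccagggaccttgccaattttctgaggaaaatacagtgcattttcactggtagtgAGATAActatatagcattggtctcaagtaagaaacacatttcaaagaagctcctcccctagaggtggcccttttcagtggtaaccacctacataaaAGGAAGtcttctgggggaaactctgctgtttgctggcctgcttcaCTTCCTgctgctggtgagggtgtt
The Gmpr window held 2 GC boxes, starting 55 and 24 bases before the start site, and none of the other 3 motifs. The Gmpr2 window held none of the 4. The Slc28a2 window held 1 GATA match, 165 bases before the start, and 2 ETS matches, 69 and 24 bases before it. Over all 32851 RefSeq promoter windows of this length, 9.99% held the GATA letters, 29.5% the ETS letters, 32.7% the GC box and 12.4% the TATA letters. Each of the other members, whose levels overlapped between the groups, also had a GC box in a window of this length. The GATA letters also lay in windows of Gmps, Hprt and Slc29a1, the ETS letters in Slc29a1 and the TATA letters in Gmps. Slc29a1 has 8 such windows and Impdh1 has 2. All these matches describe letters and not binding, and the matches in the 3 windows shown do not overlap each other.

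Total counts ran from 18748885 to 23571878 per library. Brd9 lay between 30.6 and 36.5 CPM (reads of the gene per 1000000 of the scaled library total) in the controls and between 8.57 and 13.2 CPM in the knockouts, so each library was on the side its label gives. The knockout mean was 34.7% of control, so Brd9 transcript was still counted there. Of 10 stem and progenitor markers 3 were higher and 7 lower, with a median log2 fold change of -0.070, and edgeR called 0 (2 higher and 1 lower at an unadjusted p under 0.05; 1 lower in the authors' deposited table). Their summed level was 776 to 1037 CPM in the controls and 597 to 814 CPM in the knockouts. RNA of other cells was present: 10 hepatocyte markers summed to between 10358 and 18271 CPM in the controls and between 13243 and 23462 CPM in the knockouts. All 10 were higher in the knockouts, with 0 called by edgeR, 0 at an unadjusted p under 0.05 and 0 in the authors' deposited table. Knockout replicate 3 stood apart in T lineage RNA, with 73 counts of Cd3e against 0 in the other 6 libraries and 340 counts of Rag1 against 6 to 22. Xist, which is made from the inactive X of females, was between 740 and 802 CPM in control replicates 1 and 3 and knockout replicate 2 and between 0.109 and 0.373 CPM in the other 4. The labels do not give the sex of the embryos.

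Gmpr was higher in the knockout libraries, while its paralogue and the other enzymes of the guanine branch overlapped between the groups. Gmpr encodes GMP reductase 1, which turns GMP back into IMP. It was measured at 64.7, 54.5 and 60.6 CPM in control replicates 1 to 3 and at 91.9, 88.2, 95.1 and 79.9 CPM in knockout replicates 1 to 4. The lowest knockout stood above the highest control, so the groups did not overlap. The means were 59.9 ± 5.16 CPM (SD, n = 3) and 88.8 ± 6.54 CPM (SD, n = 4), a level 1.48-fold higher, and the log2 fold change was 0.57 (SE 0.090, 95% interval 0.36 to 0.77). It rested on 1316 to 2008 reads per library. Gmpr is on the plus strand of chromosome 13 (GRCm38, 45507444 to 45553800), where the GENCODE annotation has an exon of Atxn1 on the opposite strand overlapping it. Opposite-strand exons also overlap Gmpr2 (Nedd8, Tinf2), Impdh2 (Ndufaf3), Pnp (Gm38316) and Slc29a1 (Gm17080). The strand setting of the counts is not given in the sources used here. In bulk RNA, a larger share of cells that make a transcript and more of it per cell cannot be told apart.

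**Figure D1:**
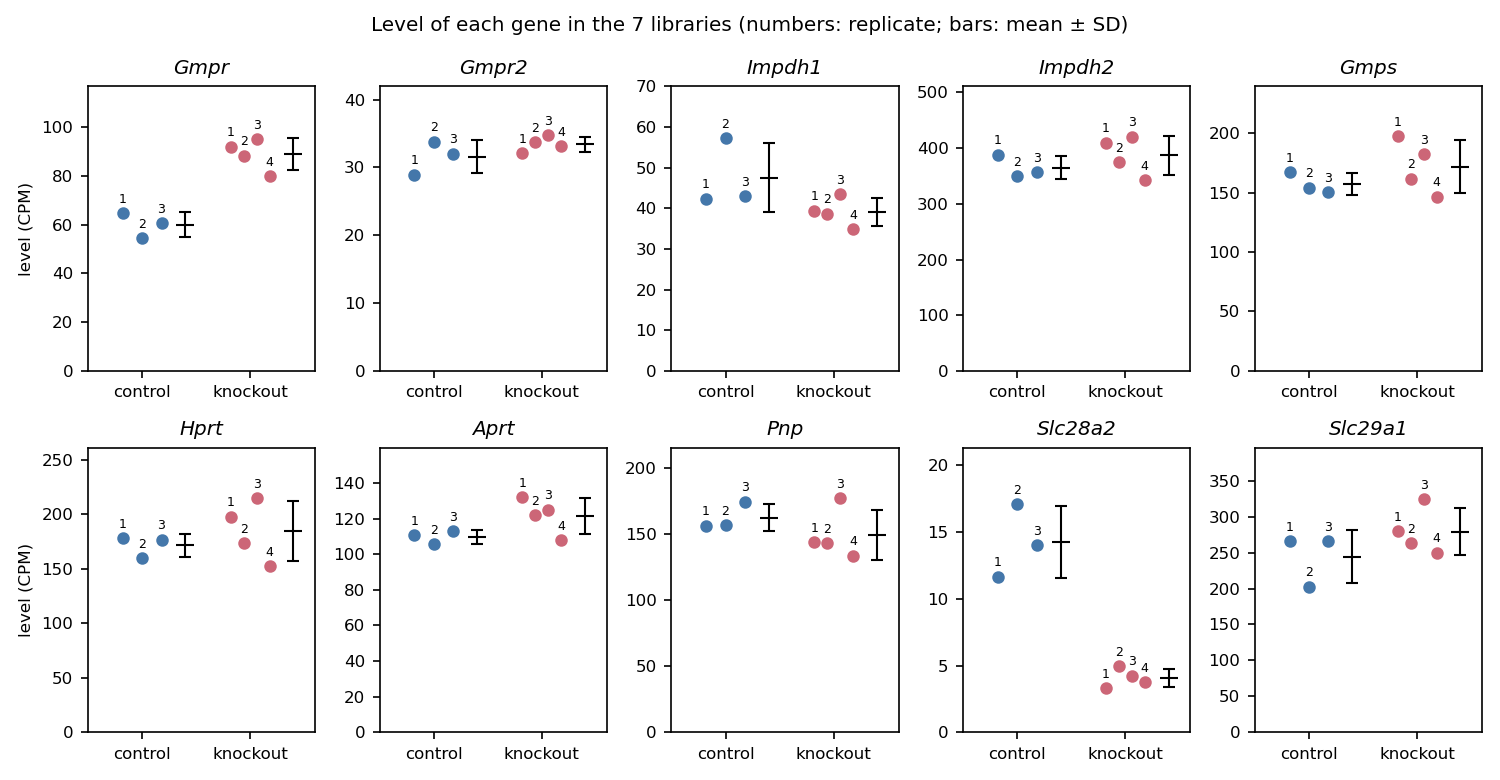
Level in CPM (vertical axes, from 0) of each of the 10 genes in the 3 control (blue) and 4 knockout (red) libraries, numbered by replicate, with mean ± SD beside them. Only the panels of Gmpr and Slc28a2 show groups that do not overlap.

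Gmpr2 encodes the second GMP reductase and catalyses the same reaction. Its control libraries held 28.9, 33.8 and 32.0 CPM and its knockouts 32.1, 33.7, 34.7 and 33.1 CPM. The knockouts lay mostly within the control range, with 1 of 4 above it. The log2 fold change was 0.082, with a 95% interval of -0.12 to 0.28. The difference between the changes of the paralogues was not tested. Normalised to the length of the principal transcript, Gmpr exceeded Gmpr2 in every library: the ratio of CPM per kb was 2.82, 2.03 and 2.39 in control libraries and 3.61, 3.30, 3.46 and 3.04 in knockout libraries. The longest identical run between the principal transcripts of this pair was 19 bases, and no 50-base stretch of Gmpr occurred in an annotated transcript of another gene.

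IMP dehydrogenase, the rate-limiting enzyme from IMP towards GMP, is encoded by Impdh1 and Impdh2. Impdh2, the main form in dividing cells, was at 388, 349 and 357 CPM in the controls and at 409, 375, 421 and 343 CPM in the knockouts. These ranges overlapped on both sides. On the log2 scale the fold change was 0.086 (95% interval -0.12 to 0.30). Of the 50-base stretches of its transcript, 73.9% also occur in the annotated pseudogene Impdh2-ps, so its count depends on how reads with several matches were handled, which is not given in the sources used here.

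Impdh1 pointed the other way. Its level was 42.4, 57.3 and 43.0 CPM in control libraries and, in knockout libraries, 39.4, 38.7, 43.4 and 34.9 CPM. Control replicate 2 stood apart as the highest, and 3 of 4 knockouts lay below every control. The log2 fold change of -0.28 had a 95% interval of -0.57 to 0.0014, and without control replicate 2 the log2 fold change was -0.13. Gmps, GMP synthetase, which makes GMP from xanthosine monophosphate, lay between 150 and 167 CPM in the controls and between 147 and 197 CPM in the knockouts (log2 fold change 0.13, 95% interval -0.11 to 0.37).

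The forward and the reverse enzyme, set against each other within a library, gave a ratio with little spread in either group. The ratio of Impdh2 to Gmpr in CPM per kb was 5.09, 5.45 and 5.01 for the controls. For the knockouts it was 3.79, 3.61, 3.76 and 3.65. The means were 5.19 ± 0.234 (SD, n = 3) and 3.70 ± 0.0857 (SD, n = 4). This ratio contains Gmpr, whose change chose the set, and is not separate evidence. The ratio of Impdh2 to Impdh1 was 11.0 ± 2.21 (SD, n = 3) and 13.9 ± 0.459 (SD, n = 4), with control replicate 2 the lowest at 8.53.

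**Figure D2:**
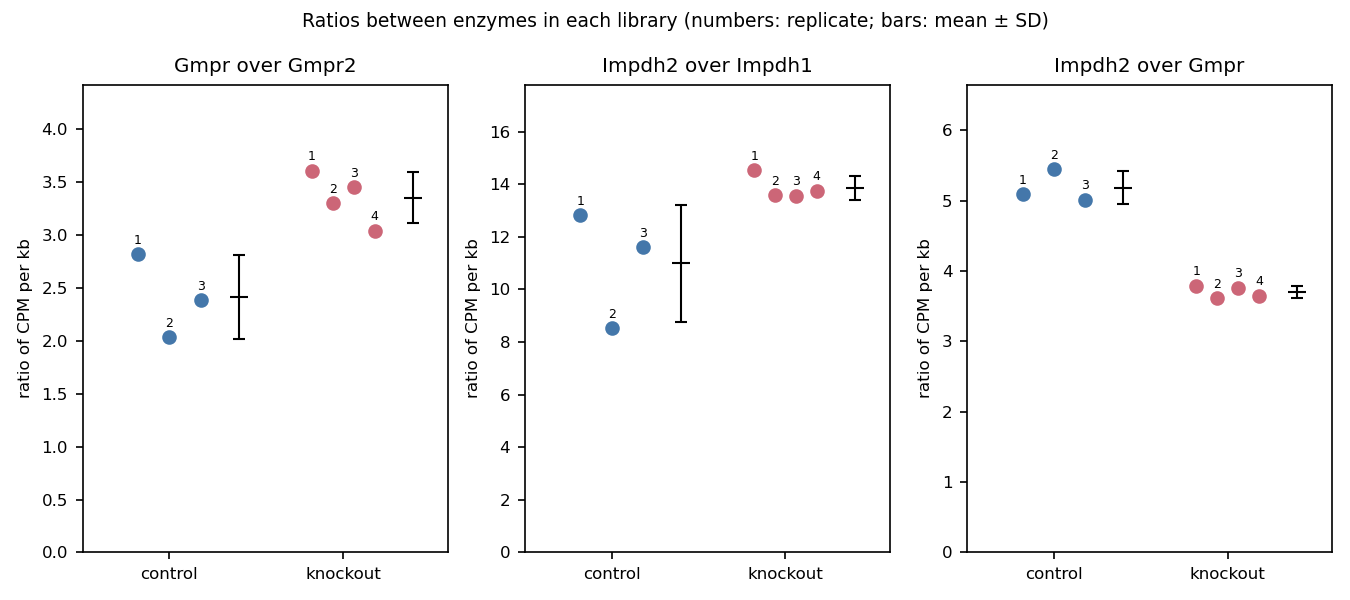
Ratios of CPM per kb of principal transcript (vertical axes, from 0) between pairs of guanine branch enzymes in each control (blue) and knockout (red) library, with mean ± SD. Impdh2 over Gmpr lies between 5.01 and 5.45 in the controls and between 3.61 and 3.79 in the knockouts.

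The 3 salvage enzymes overlapped between the groups. Hprt, which returns hypoxanthine and guanine to IMP and GMP, was at 178, 159 and 177 CPM in the controls and at 198, 173, 215 and 152 CPM in the knockouts. The knockouts lay both above and below the controls, and their coefficient of variation was 14.8% against 6.06%. Its log2 fold change was 0.11 (95% interval -0.15 to 0.37). Hprt is X-linked, on the plus strand from 52988137 to 53021659. Between libraries of high Xist its difference in log2 CPM was -0.033 (2 controls, 1 knockout), and between those of low Xist 0.22 (1 control, 3 knockouts).

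Aprt returns adenine to adenosine monophosphate. It was the steadiest member in the controls, with 111, 106 and 113 CPM and a coefficient of variation of 3.45%. The knockouts held 132, 122, 125 and 108 CPM, and 3 of 4 lay above every control. Its log2 fold change was 0.15 (95% interval -0.034 to 0.33).

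Pnp, purine nucleoside phosphorylase, splits inosine and guanosine into base and sugar phosphate and so feeds Hprt. Control libraries held 157, 157 and 175 CPM, against knockout values of 144, 144, 178 and 134 CPM. Here 3 of 4 knockouts lay below every control while knockout replicate 3 lay above them all. This gave a log2 fold change of -0.12 (95% interval -0.35 to 0.11). Pnp has a copy, Pnp2, whose annotated span lies inside that of Pnp on the same strand. The pair shares an identical run of 292 bases, and exons of the annotated gene Gm49342 overlap both on that strand. Pnp2 was counted separately, with a log2 fold change of -0.17 (SE 0.16), and the share of reads exchanged between the copies is not known.

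Slc28a2 had the largest difference of the set. It encodes CNT2, a sodium-coupled carrier that concentrates purine nucleosides and uridine in the cell. Its level was 11.7, 17.1 and 14.0 CPM in the controls and 3.33, 4.97, 4.26 and 3.75 CPM in the knockouts. The highest knockout was less than the lowest control. Mean levels were 14.3 ± 2.73 CPM (SD, n = 3) and 4.08 ± 0.704 CPM (SD, n = 4), which is 28.6% of control, or 3.50-fold lower. The log2 fold change was -1.80 (SE 0.19, 95% interval -2.23 to -1.37). It is the least abundant gene of the set, with 253, 413 and 305 reads over the controls and 61, 110, 90 and 77 over the knockouts.

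Slc28a2 lies on the plus strand of chromosome 2 (122426477 to 122461137), next to a copy that the count table lists as Gm14085 and RefSeq names Slc28a2b. The principal transcripts of the pair share an identical run of 295 bases, and 39.6% of the 50-base stretches of Slc28a2 occur in the copy. Gm14085 had 6, 21 and 12 reads over the controls and 6, 4, 4 and 3 over the knockouts, too few to pass the filter. Summed, the copies had 259, 434 and 317 reads over the controls and 67, 114, 94 and 80 over the knockouts. The summed level in the knockouts was 28.9% of control, close to that of Slc28a2 alone.

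Slc29a1 encodes ENT1, which lets nucleosides pass along their gradient and is the more abundant carrier. It was at 266, 202 and 265 CPM in the controls and at 280, 263, 324 and 250 CPM in the knockouts. Control replicate 2 was the lowest library and 2 of 4 knockouts stood above every control. The log2 fold change was 0.19 (95% interval -0.090 to 0.47), and 0.071 without control replicate 2. Per kb of transcript, the ratio of Slc29a1 to Slc28a2 was 40.2, 20.9 and 33.4 in control libraries and 148, 93.4, 134 and 117 in knockout libraries. It contains Slc28a2, whose change chose the set, and is not separate evidence.

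**Figure D3:**
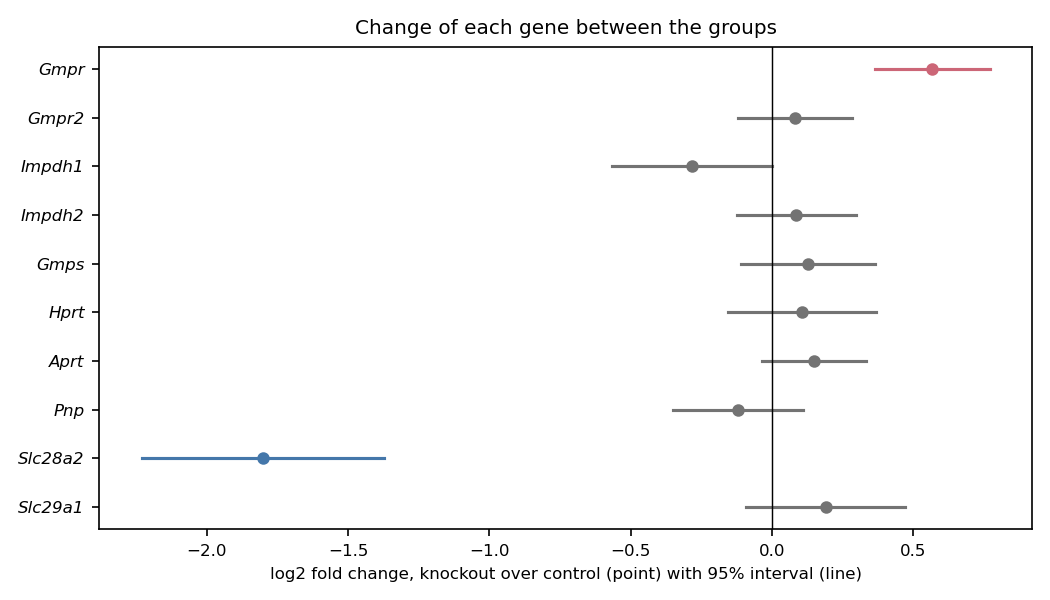
Log2 fold change of each gene, knockout over control (point), with its 95% interval from edgeR (line). Gmpr (red, 0.36 to 0.77) and Slc28a2 (blue, -2.23 to -1.37) have intervals clear of 0, and those of the other 8 (grey) include 0.

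Over the set, edgeR's quasi-likelihood test across 14679 genes called Gmpr as higher and Slc28a2 as lower and did not call the other 8. In that fit 0.559% of all genes were called in either direction at a Benjamini-Hochberg adjusted p under 0.05. By direction 0.0136% were called higher and 0.545% lower. Groups that do not overlap were found for 2 of 10 members and for 11.2% of all genes. Because this contrast chose the set, nothing is read from those shares. The authors' deposited table, which called 2.19% of the genes it tested, has the same 2 members past that threshold. The median log2 fold change was 0.096 over the 10 genes and 0.011 over all genes tested. Of the 8 genes that were not called, 7 had a 95% interval within 0.5 of 0 in either direction on the log2 scale. Impdh1 was the exception.

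The call on Gmpr was lost when any one of control replicates 2 and 3 or knockout replicates 1 and 2 was left out, and when the fit was adjusted for Xist. Its log2 fold change stayed between 0.50 and 0.63 over the 15 alternative settings. Slc28a2 was called in all 15, with log2 fold changes of -1.93 to -1.65. Since these values chose the set, the calls are a description and no separate support. Without knockout replicate 3, the library with T lineage RNA, the values were 0.53 for Gmpr and -1.82 for Slc28a2. Control replicates 1 and 3 and knockout replicate 2 had high Xist. Among them the difference between the groups in log2 CPM was 0.49 for Gmpr and -1.35 for Slc28a2. Among the libraries of low Xist (control replicate 2, knockout replicates 1, 3 and 4) it was 0.70 and -2.16. Control replicate 2, the only control of that class, had the lowest Gmpr and the most Slc28a2 of the controls.

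In levels per kb of principal transcript, the controls ranked from Impdh2 (196 ± 11.0 CPM per kb) through Hprt (133 ± 8.06), Aprt (129 ± 4.46) and Slc29a1 (110 ± 16.4) to Pnp (55.3 ± 3.55) and Gmpr (37.9 ± 3.27). Below these lay Gmps (19.4 ± 1.10), Impdh1 (18.3 ± 3.25), Gmpr2 (15.8 ± 1.23) and Slc28a2 (3.65 ± 0.697; all SD, n = 3). Neighbours from Hprt to Slc29a1 differed by less than their summed SD, and so did Gmps against Impdh1 and Impdh1 against Gmpr2. The principal transcript of Gmps is 8105 bases long, so its place depends on that transcript being the one expressed. In the knockouts Gmpr reached 56.2 ± 4.14 CPM per kb (SD, n = 4), beside Pnp at 50.9 ± 6.50 (SD, n = 4).

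Markers of red cells and of neutrophils, macrophages and monocytes moved with the groups in the same libraries. Of 17 erythroid markers 13 were higher in the knockouts and 0 were called by edgeR; at an unadjusted p under 0.05 there were 7 higher and 2 lower, and the authors' deposited table has 4 higher and 2 lower. Over all genes 3.95% were higher and 6.90% lower at that unadjusted p. Their summed level was 6140, 3754 and 6300 CPM in the controls and 6663, 6751, 7708 and 5852 CPM in the knockouts, and no marker was at 0 in every library. Control replicate 2 was lowest in both this sum and Gmpr, and knockout replicate 3 highest in both. Control replicates 1 and 3 exceeded knockout replicate 4 in the erythroid sum and lay below it in Gmpr. The part of red cell content in the Gmpr result was not tested.

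For Slc28a2 the neutrophil and macrophage markers are set beside it. Of 15 neutrophil markers 14 were lower and 7 were called lower, against 0.545% of all genes, with summed levels of 4996 to 8901 CPM in the controls and 1669 to 3828 CPM in the knockouts. Of 10 tested macrophage markers (12 listed) all were lower and 1 was called, with sums over the 12 of 189 to 258 CPM and 39.5 to 128 CPM. Of 7 monocyte markers all were lower and 1 was called (137 to 242 CPM and 27.1 to 81.8 CPM). Of 7 tested mast cell, basophil and eosinophil markers (8 listed) 2 were higher and 5 lower, with 1 called lower. Their sums overlapped, at 367 to 755 CPM in the controls and 281 to 791 CPM in the knockouts. Of 8 megakaryocyte markers 3 were higher, 5 lower and 0 called, with sums of 756 to 1392 and 518 to 1289 CPM. No marker of these lists was at 0 in every library. At an unadjusted p under 0.05 in edgeR, 11 neutrophil, 7 macrophage and 5 monocyte markers were lower and 1 neutrophil marker was higher. For mast cells, basophils and eosinophils it was 3 lower and 1 higher, and for megakaryocytes 1 lower. Over all genes 6.90% were lower and 3.95% higher. The authors' deposited table has 8, 6, 3, 1 and 0 lower in these lists, in that order, and 0 higher. Among the controls, replicate 2 had the most Slc28a2, the highest neutrophil and monocyte sums and the lowest macrophage sum. Among the knockouts, replicate 2 had the most Slc28a2, while replicate 3 had the highest neutrophil, monocyte and macrophage sums. The part of myeloid cell content in the Slc28a2 result was not tested.

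**Figure D4:**
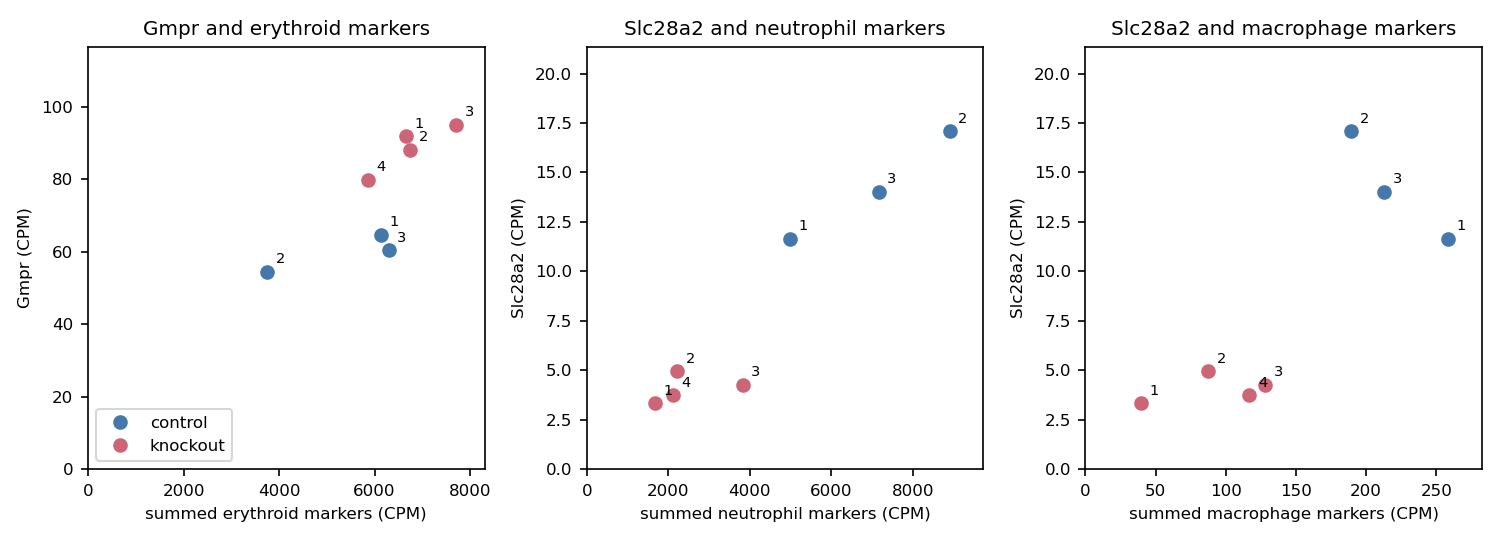
Level of Gmpr against the summed erythroid markers, and of Slc28a2 against the summed neutrophil and macrophage markers, all in CPM from 0, for each control (blue) and knockout (red) library, numbered by replicate. Erythroid sums overlap between the groups (3754 to 6300 and 5852 to 7708 CPM) while Gmpr does not. The neutrophil and macrophage sums are lower in all knockouts.

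Predicted genes, clone names and pseudogenes were left out of the comparison of patterns. This left 8977 other genes averaging 10 CPM or more to set against Gmpr. Those following Gmpr most closely in log2 CPM over the 7 libraries were Gtf3c5 (Pearson r = 0.985), Tmod1 (r = 0.983) and Ankrd9 (r = 0.983). Tmod1, tropomodulin 1, caps actin filaments in the red cell skeleton, and Gtf3c5 is a subunit of a factor for RNA polymerase III. For Slc28a2, with 8978 genes compared, the closest were Pxylp1 (r = 0.989), Nceh1 (r = 0.987) and F13a1 (r = 0.983). The last encodes a subunit of coagulation factor XIII. F13a1 is also 1 of the 7 monocyte markers and the 1 that was called. Once group means were removed, r was 0.88, 0.95 and 0.92 for the first 3 and 0.88, 0.88 and 0.74 for the others. These correlations include the group difference, share libraries and were the highest among all genes compared, so they are a description only.

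The wider purine and pyrimidine machinery, taken as 96 other genes in 10 lists, held 1 called gene among the 88 tested. That gene, Gda, fell; the called share is 1.14% against 0.559% of all genes. At an unadjusted p under 0.05 there were 4 higher and 5 lower, or 4.55% and 5.68%, where all genes gave 3.95% and 6.90%. The authors' deposited table called 4 of the 88, or 4.55%, against 2.55% of all genes tested here. The groups did not overlap for 12 of 88 (13.6%, against 11.2% of all genes). Of the 88, 60 were higher, beside 7685 of all 14679 genes, and the median log2 fold change was 0.064 beside 0.011.

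Gda encodes guanine deaminase, which turns guanine into xanthine and so removes it from salvage by Hprt. Its level was 32.8, 64.0 and 52.8 CPM in the controls and 20.5, 18.6, 24.3 and 20.3 CPM in the knockouts. Every knockout was below every control, although the gap between the lowest and the highest control was as wide as that between the group means. Mean levels were 49.9 ± 15.8 CPM (SD, n = 3) and 20.9 ± 2.44 CPM (SD, n = 4), a 2.38-fold fall, with a log2 fold change of -1.25 (SE 0.20; edgeR quasi-likelihood, adjusted p = 0.031). Over the alternative settings the adjusted p ran from 8.9e-07 to 0.135. The call was lost with limma-voom, with a block on replicate number, and when any one of control replicates 2 and 3 or knockout replicates 1, 2 and 4 was left out. Gda was lower in the same libraries as the neutrophil and macrophage sums, whose part in its fall was not tested.

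**Figure D5:**
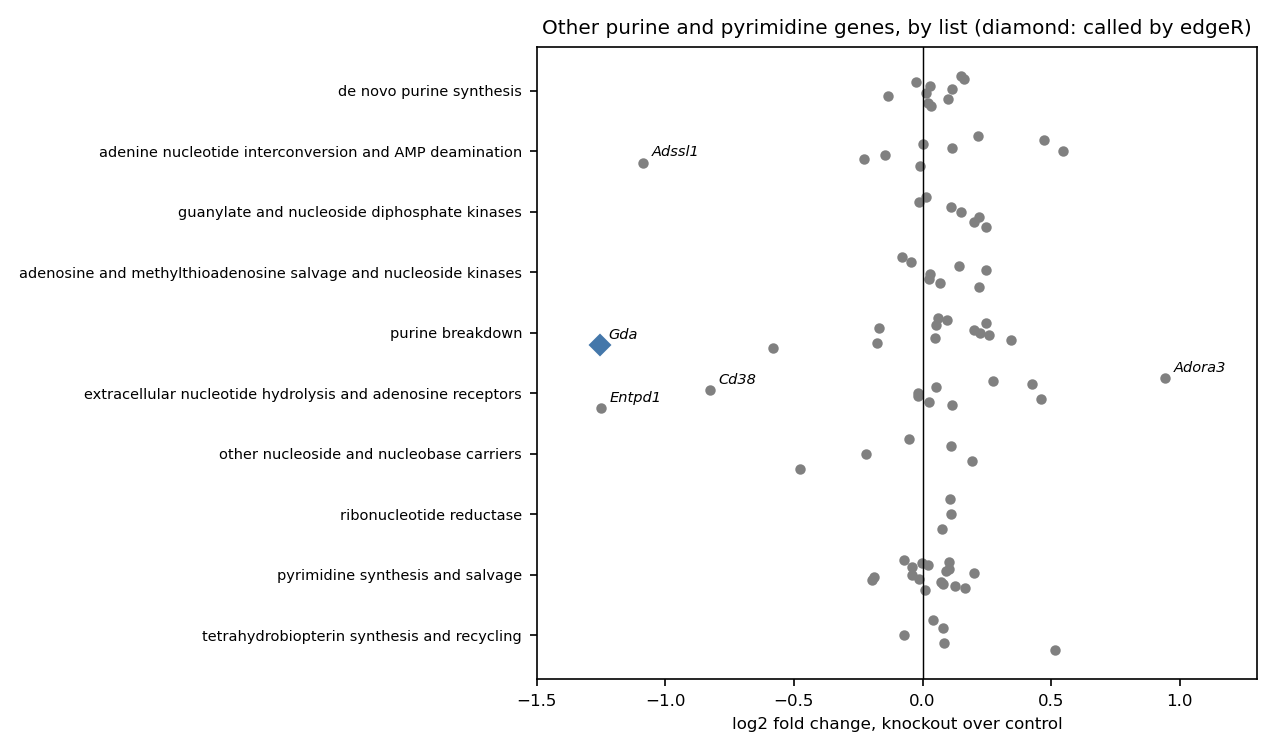
Log2 fold change, knockout over control (horizontal axis), of the 88 tested genes of 10 purine and pyrimidine lists, 1 point per gene; the diamond marks Gda, which edgeR called, and genes beyond 0.6 in either direction are named. Most points lie near 0, and the named genes at the left end are Gda, Entpd1, Adssl1 and Cd38.

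In the other lists no gene was called by edgeR, and the genes named are those with the smallest p. Their counts stand beside the shares over all genes just given: 3.95% higher and 6.90% lower at an unadjusted p under 0.05, and 2.55% called in the authors' deposited table. De novo purine synthesis had 0 of 10 genes called and 0 at an unadjusted p under 0.05 in edgeR, 0 in the authors' deposited table and a median of 0.030. Adsl, which acts both in that pathway and in making AMP, had 138 ± 6.63 CPM (SD, n = 3) in the controls and 155 ± 15.8 CPM (SD, n = 4) in the knockouts. Atic, the enzyme of the last steps to IMP, had 293 ± 14.4 and 325 ± 27.2 CPM, and Prpsap2, a partner of the enzyme that makes the ribose phosphate donor, 25.9 ± 2.12 and 23.6 ± 1.25 CPM. Each of these 3 overlapped between the groups.

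Of 9 tested genes of adenine nucleotide interconversion 0 were called; 1 was higher and 2 lower at an unadjusted p under 0.05, and the authors' deposited table called 1. Adssl1, an adenylosuccinate synthase that takes IMP towards AMP, was at 34.7, 65.9 and 50.3 CPM in the controls and at 13.4, 28.3, 31.8 and 21.2 CPM in the knockouts. All knockouts lay below all controls, with a log2 fold change of -1.09 (SE 0.29, edgeR adjusted p = 0.169). It was called with no filter on low counts, with DESeq2 and with the replicate block. Ampd2, an AMP deaminase that returns AMP to IMP, had 187 ± 10.6 CPM (SD, n = 3) and 159 ± 11.2 CPM (SD, n = 4) without overlap. Ak4, a mitochondrial adenylate kinase, had 20.2 ± 3.12 and 28.0 ± 7.68 CPM. It was highest in knockout replicates 1 and 4, at 36.8 and 32.1 CPM, the libraries that also had the highest hepatocyte sums (22154 and 23462 CPM), whose part in its level was not tested.

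Kinases that carry GMP onward gave small differences with 0 of 7 called (1 higher unadjusted, 0 in the authors' deposited table) and a median of 0.15. Guk1, guanylate kinase, which makes GDP from GMP, had 38.6 ± 3.63 CPM (SD, n = 3) in the controls and 45.8 ± 4.60 CPM (SD, n = 4) in the knockouts without overlap (edgeR adjusted p = 0.451). Nme2, a nucleoside diphosphate kinase, had 175 ± 5.66 and 204 ± 27.2 CPM, also without overlap, and its relative Nme1 181 ± 18.3 and 207 ± 30.6 CPM. Of 8 nucleoside salvage genes 0 were called, 0 had an unadjusted p under 0.05 in edgeR and the authors' deposited table called 0. Among them, Mtap, which recovers adenine from methylthioadenosine, had 64.2 ± 6.52 and 76.3 ± 13.2 CPM. Dck, deoxycytidine kinase, had 95.7 ± 12.8 and 106 ± 13.1 CPM, and Ada, adenosine deaminase, 10.5 ± 1.18 and 12.3 ± 2.29 CPM.

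The breakdown list held, besides Gda, a pair of cytosolic nucleotidases at an unadjusted p under 0.05. Nt5c3, the pyrimidine nucleotidase of maturing red cells, was at 90.1, 84.4 and 88.0 CPM in the controls and at 102, 106, 111 and 99.6 CPM in the knockouts. The groups did not overlap, and the log2 fold change was 0.26 (SE 0.069, edgeR adjusted p = 0.176). Nt5c had 32.4 ± 0.753 CPM (SD, n = 3) and 41.0 ± 5.58 CPM (SD, n = 4), also without overlap (edgeR adjusted p = 0.311).

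Enzymes that act on extracellular nucleotides included some of the larger differences of the lists. Of 11 tested genes 0 were called, 2 were lower at an unadjusted p under 0.05 and 2 were called in the authors' deposited table, where all genes gave 6.90% and 2.55%. Entpd1, which encodes CD39 and hydrolyses ATP and ADP outside the cell, was at 8.89, 9.94 and 9.15 CPM in the controls and at 2.08, 4.34, 4.59 and 4.63 CPM in the knockouts. It was tight in the controls, lay lower in every knockout, and had a log2 fold change of -1.25 (SE 0.25, edgeR adjusted p = 0.076). Cd38, an enzyme that consumes NAD at the cell surface, was at 8.02, 7.66 and 7.72 CPM in the controls and at 4.81, 4.74, 3.17 and 4.87 CPM in the knockouts, again without overlap (edgeR adjusted p = 0.106). Adora3, an adenosine receptor, had 0.454 ± 0.194 and 0.878 ± 0.375 CPM and overlapped.

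Other carriers showed no change that the test called (0 of 5 tested, 0 at an unadjusted p under 0.05, 0 in the authors' deposited table). Slc28a1, a relative of Slc28a2 that prefers pyrimidines, had 1.12 ± 0.219 CPM (SD, n = 3) in the controls and 0.805 ± 0.223 CPM (SD, n = 4) in the knockouts. Slc29a2, which encodes ENT2, had 9.10 ± 1.12 and 10.4 ± 0.939 CPM. Slc29a3, a carrier of lysosomal membranes, had 26.4 ± 3.43 and 22.7 ± 2.19 CPM. Slc28a3, the third concentrative carrier, had 5 reads in all libraries together and was not tested.

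Ribonucleotide reductase, pyrimidine synthesis and salvage, and tetrahydrobiopterin synthesis from GTP had 0 called of 3, 17 and 5 tested genes, 0 at an unadjusted p under 0.05 and 0 in the authors' deposited table. Their medians were 0.11, 0.021 and 0.079. Rrm1 and Rrm2, the subunits of the reductase in dividing cells, had 610 ± 61.9 and 266 ± 23.7 CPM in the controls (SD, n = 3) and 643 ± 46.9 and 287 ± 38.2 CPM in the knockouts (SD, n = 4). Rrm2b, the subunit used outside S phase, had 10.2 ± 0.449 and 11.0 ± 0.501 CPM. Dctd, deoxycytidylate deaminase, had 52.6 ± 3.68 and 60.5 ± 5.81 CPM without overlap. Dhodh, the mitochondrial enzyme of pyrimidine synthesis, had 45.1 ± 2.22 and 50.6 ± 4.42 CPM, and Uckl1, a uridine kinase relative, 26.9 ± 1.33 and 23.4 ± 2.51 CPM. Gch1, which commits GTP to tetrahydrobiopterin, had 2.88 ± 0.676 and 4.13 ± 0.857 CPM, without overlap. Spr and Qdpr, later enzymes of that pathway, had 31.7 ± 1.85 and 82.8 ± 0.432 CPM in the controls and 33.4 ± 3.40 and 85.2 ± 1.43 CPM in the knockouts, and of these only Qdpr did not overlap.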

How the data were processed

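The deposited table of counts holds the authors' raw reads per gene symbol. The submitters' processing notes name HISAT2, featureCounts, DESeq2 and the build mm10. For versions, annotation, strand setting and the handling of reads with several matches, the entry is: not given in the sources used here. The authors' deposited table of their comparison holds a signal, which is each count over a constant of the library (0.855 to 1.14), log2 fold changes with errors, a test score and p-values from DESeq2.

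Genes were kept with filterByExpr (14679 of 35976), scaled by TMM and tested with edgeR 4.0.16 quasi-likelihood (glmQLFit, glmQLFTest; R 4.3.3) on group alone, over all 7 libraries, called at a Benjamini-Hochberg adjusted p under 0.05. Levels are CPM of the TMM-scaled total; log2 CPM has a prior count of 2; intervals are fold change ± t quantile × SE. Lengths and coordinates are from GENCODE M21 (GRCm38), using the principal transcript. A RefSeq promoter window was found for all 10 genes; those with several starts have several. Of 96 pathway entries 1 was found under another symbol.

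The members and lists were chosen with earlier results of these data known. Named genes are the 10 members, each called pathway gene, the 3 of each list with the smallest p, and the 3 closest in pattern to Gmpr and to Slc28a2; Cd3e and Rag1 were added after their values were seen. Alternatives were DESeq2 size factors or total counts, no filter or a mean of 1 CPM, DESeq2 1.42.0, limma-voom (limma 3.58.1), a replicate block, the Xist level as covariate, and each library left out. Library pairs of a group differed beyond sampling noise (chi-square per degree of freedom of 8.50 or more).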

Additional observations from a re-analysis of the deposited data

Results flagged for a closer look

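Of 40 genes examined in the 4 knockout libraries, 5 had a library whose gap to its nearest neighbour exceeded Dixon's 95% critical value for a group of 4; chance flags about 1 in 20 groups. None of them was a member of the set. Mtap stood at 96.1 CPM in knockout replicate 1, against 68.0 to 71.0 CPM in the other knockouts. Gch1 stood at 5.41 CPM in the same library, against 3.57 to 3.79 CPM. Entpd1 was lowest there, at 2.08 CPM against 4.34 to 4.63 CPM. Cd38 was lowest in knockout replicate 3, at 3.17 CPM against 4.74 to 4.87 CPM, and so was Slc28a1, at 0.474 CPM against 0.874 to 0.948 CPM.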

How the results depend on the processing

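Changed genes numbered 82, and 228 with no filter, 382 with DESeq2 and 52 when Xist was a covariate, and 20 to 120 when single libraries were left out. The number of members called, 2, was 1 with that covariate and 1 to 2 when single libraries were left out, Slc28a2 being the 1. The number of called pathway genes, 1, was 3 with no filter (Gda, Entpd1, Adssl1), 4 with DESeq2 (these and Cd38), 0 with limma-voom (8 at an unadjusted p under 0.05), and 0 to 1 when single libraries were left out (6 to 11 unadjusted). With the replicate block 121 genes, 2 members and 1 pathway gene were called, the last being Adssl1 in place of Gda. The same-numbered libraries are not tied by the labels, and their deviations from the group means correlated at 0.17, -0.022 and -0.0052, so the numbers were not taken as pairs. Control replicate 2 correlated best with knockout replicate 4 (0.13). All 10 members kept their sign in the 15 settings. Of the 30 named pathway genes, Rrm1 changed sign in 1 setting. Depth limits Slc28a2, with 61 to 110 reads per knockout library, and the sparse genes that were not tested, such as Gm14085 and Slc28a3.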
